A study of Mus musculus with 8 samples.

Results

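The regions described here are the stretches of the mouse autosomes where 5-hydroxymethylcytosine (5hmC) was called in both wild-type (WT) libraries of the series and in neither TET2 knockout (KO) library. They were chosen by the measured peaks themselves. Touching or overlapping peaks of the 4 deposited peak lists were merged into union regions, and a region was kept when at least 1 bp of a peak of each WT list and no base of a KO peak lay in it. This left 6562 WT-only regions of 341091 autosomal union regions. The presence of a peak in WT, its absence in KO and every other WT against KO measure of these regions were therefore used by the choice, and are given below as a description with no test.

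The series holds 8 libraries of genomic DNA from germinal center B cells isolated from mouse spleen. All mice were of the C57BL/6 strain and either WT or knockout for TET2. In 4 libraries, 2 per genotype and numbered 2 and 3 in the labels of both, DNA carrying 5hmC had been pulled down before sequencing (hMeDIP-seq), and the other 4 are inputs that were not analysed here. The labels give no age, no sex, no knockout allele and no deleting Cre line, and they do not say whether the 2 libraries of a genotype came from separate mice, so the spread between them may be technical. Peaks of 5hmC do not read expression, so the cell type could not be checked against RNA or protein markers.

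TET2 is one of the dioxygenases that oxidize 5-methylcytosine to 5hmC, a step on the way to unmethylated cytosine that mostly takes place at CpG dinucleotides. In many tissues 5hmC lies over the bodies of active genes and at enhancers and is low over CpG-rich promoters of active genes. Germinal center B cells are activated B cells that divide rapidly and mutate their antibody genes, and loss-of-function mutations of TET2 occur in lymphomas that arise from such cells.

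As examples, the 250 bases before the start site are given for 4 genes whose start lies inside a WT-only region. Few regions lie at starts: 56 WT-only regions (0.88% of those that could be placed) overlapped the 300 bases around a start. The share was 0.824% of all union regions, 0.856% of regions shared by 4 libraries and 0.331% of KO-only regions, so scarcity at starts was common to the series. The stretches are not the regions themselves, whose own sequence was not read. Each is written 5′ to 3′ on the strand of the gene, with every CpG in capitals. The sequences come from RefSeq with build GRCm38.p6, whose table of start windows holds 16457 of the 20665 autosomal protein-coding genes, so genes without an entry were not looked at. Adam10, Lalba and Gm33473 are among the 5 strongest such regions, and Mllt6, which has the second most CpGs of these stretches, was picked after its values were seen.
Adam10: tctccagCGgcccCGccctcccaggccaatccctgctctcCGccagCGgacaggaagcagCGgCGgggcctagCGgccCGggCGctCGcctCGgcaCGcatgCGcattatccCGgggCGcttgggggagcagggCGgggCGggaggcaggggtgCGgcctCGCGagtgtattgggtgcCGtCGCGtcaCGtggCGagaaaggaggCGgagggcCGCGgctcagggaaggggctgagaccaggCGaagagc
Lalba: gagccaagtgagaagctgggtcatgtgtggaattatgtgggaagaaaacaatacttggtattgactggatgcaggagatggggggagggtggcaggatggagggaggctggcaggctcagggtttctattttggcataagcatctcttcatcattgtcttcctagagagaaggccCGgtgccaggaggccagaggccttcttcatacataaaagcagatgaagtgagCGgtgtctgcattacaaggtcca
Gm33473: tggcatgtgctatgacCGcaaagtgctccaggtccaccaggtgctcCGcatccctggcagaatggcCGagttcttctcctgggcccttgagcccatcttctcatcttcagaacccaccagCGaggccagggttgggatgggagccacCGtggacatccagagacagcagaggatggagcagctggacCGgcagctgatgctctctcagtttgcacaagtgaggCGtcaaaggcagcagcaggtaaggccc
Mllt6: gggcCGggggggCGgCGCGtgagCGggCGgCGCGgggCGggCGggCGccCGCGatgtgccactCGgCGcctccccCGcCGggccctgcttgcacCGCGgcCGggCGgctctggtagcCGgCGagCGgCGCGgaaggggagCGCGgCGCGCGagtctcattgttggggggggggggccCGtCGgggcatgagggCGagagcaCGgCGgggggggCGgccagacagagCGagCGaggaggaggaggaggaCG
The Adam10 stretch is chr9:70678732-70678981 on the plus strand and holds 29 CpGs. Adam10 encodes a metalloprotease that cleaves Notch receptors and CD23, and 203 bp of the stretch lay in the WT-only region. The Lalba stretch, chr15:98482684-98482933 on the minus strand, holds 2 CpGs. Lalba encodes the milk protein alpha-lactalbumin, and 38 bp next to its start were covered. The Gm33473 stretch, chr14:121994230-121994479 on the plus strand, holds 7 CpGs and lies inside the gene Ubac2. The Mllt6 stretch, chr11:97663162-97663411 on the plus strand, holds 40 CpGs and was covered over all of its 250 bp. Mllt6 is a fusion partner of the histone methyltransferase gene Kmt2a in leukemia.

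The 4 starts show both ends of CpG content. In the Adam10 region (9, 70678779 to 70679145) the peak had a fold enrichment, the deposited ratio of pulled-down signal to local background, of 4.04 in WT replicate 2 and 4.89 in WT replicate 3. In the Mllt6 region the values were 3.52 and 4.33, in the Lalba region 5.69 and 4.18, and in the Gm33473 region 3.92 and 4.33. In all, 37 start windows had their start inside a WT-only region, with 1 to 42 CpGs in the 250 bases before it and a median of 6. Counted over 300 bases (250 before the start and 50 after), 59 windows of 56 genes overlapped a WT-only region, and 16 of them (27.1%) held 15 or more CpGs (the letters CG, counted on 1 strand, since it reads the same on both). The same share was 35.2% of all 31396 windows in the table and 26.0% of the 1899 windows that overlapped a region shared by 4 libraries. The CpG content of these windows was therefore close to that of windows with shared 5hmC, and a CpG in the letters does not say that it carried 5hmC.

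The WT-only regions made up 1.92% of the autosomal union regions. The mirror class, KO-only regions with a peak in both KO libraries and no WT library, held 4402 regions (1.29%), and 205439 regions had a peak in all 4 libraries. The libraries differed before any comparison. The most frequent local background, recovered from the deposited fold and p-value of each peak and read as a measure of depth, was 8.66 reads in WT replicate 2 and 10.9 to 11.7 in the other 3. The autosomal peaks of KO replicate 3 covered 106.3 Mb, against 119.7 to 133.5 Mb in the others, and WT replicate 3 had the longest list with 300954 peaks. With the same number of peaks taken from each list there were 5154 WT-only and 5029 KO-only regions, so most of the larger number of WT-only regions ended there. Leaving out a library makes the class of its genotype need 1 library and the other class 2, so those counts do not compare like classes. They were 13499 WT-only and 14432 KO-only without KO replicate 3, and 22415 and 22464 without KO replicate 2. Without WT replicate 3 they were 16223 and 16800, and without WT replicate 2 they were 27724 and 9258. With 2 libraries a genotype, differences between libraries and between genotypes cannot be told apart here.

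The peaks in WT-only regions were weak in both WT libraries. In WT replicate 2 the fold enrichment ran from 1.74 to 7.14 with a median of 3.92, and in WT replicate 3 from 1.54 to 6.62 with a median of 3.55. Regions shared by 4 libraries had medians of 6.29 and 5.80 in the same libraries. The median peak of a WT-only region held 38 reads at its summit in WT replicate 2 and 45 in WT replicate 3, against 62 and 75 reads in shared regions. The KO-only regions were as weak in their own libraries, with median folds of 3.67 in KO replicate 2 and 3.54 in KO replicate 3. Weakness of the peaks was therefore common to both genotype-specific classes.

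**Figure D1:**
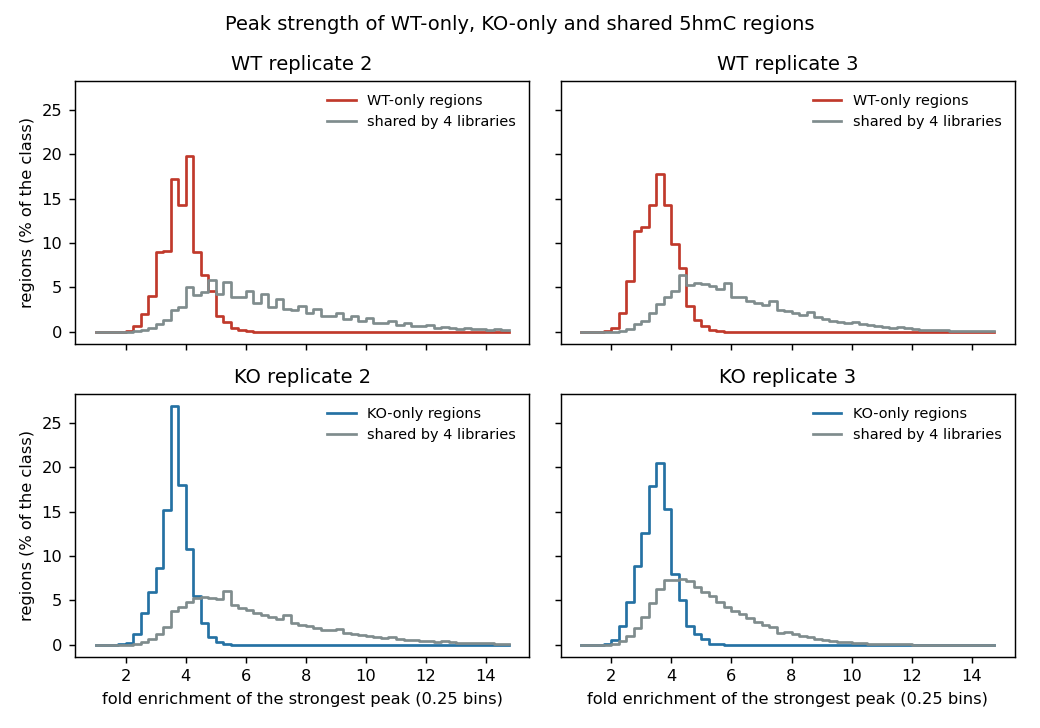
Histograms of the fold enrichment of the strongest peak (x axis, ratio to local background, bins of 0.25) as a percentage of the regions of each class (y axis), 1 panel per pull-down library. The WT-only regions in the upper panels and the KO-only regions in the lower panels pile up below 5-fold, with medians of 3.54 to 3.92, while regions shared by 4 libraries spread to higher folds.

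Taking for each region the lower of its 2 WT folds, the median was 3.47 and 14 of the 6562 regions reached 5-fold in both libraries. At the threshold itself, the lower of the 2 WT −log10 q-values in the WT-only regions started at 2.17, with a median of 10.2 and 12 regions under 3. Just outside the class, 15687 regions had both WT peaks and a peak in KO replicate 2 alone, whose −log10 q started at 2.56 with a median of 14.0. A further 6930 had both WT peaks and a peak in KO replicate 3 alone, starting at 2.33 with a median of 11.1. On the other side, 9520 regions had a peak in WT replicate 2 alone (lowest −log10 q 2.41, median 9.90) and 21021 in WT replicate 3 alone (lowest 2.20, median 10.8). The absence of a listed KO peak means that none passed the authors' caller, not that 5hmC was absent, since the signal under unlisted positions was not analysed here.

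The choice of regions already requires the WT peaks to share 1 short region, so their summits had to lie near each other. Among the 6536 WT-only regions with a single peak in each WT library, the summits lay a median of 27 bp apart, and 90.2% were within 100 bp, against a median of 19 bp in shared regions. The regions were short, with a median width of 365 bp against 495 bp in shared regions and 370 bp in KO-only regions, and covered 2625 kb in all. The ranking of the regions by fold was less alike between the libraries. Across the 6562 regions the folds of WT replicate 2 and WT replicate 3 correlated with a Pearson r of 0.466 on the log2 scale and a Spearman rho of 0.459, against 0.854 and 0.847 across shared regions. Regions are not independent replicates and share their libraries, so no test is given. In 71.9% of WT-only and 69.2% of shared regions the fold of WT replicate 2 was above that of WT replicate 3.

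The strongest WT-only regions, ranked by the lower WT fold, were spread over unrelated genes and gene-poor stretches. The first lay within or at the edge of Pcdh15, which encodes a protocadherin of inner ear hair cells (10, 73199515 to 73199941). It had 6.00-fold enrichment in WT replicate 2 and 5.52-fold in WT replicate 3. The next was inside Iffo1, an intermediate filament family gene (6, 125154855 to 125155236), with 5.90 and 5.44. A region inside the uncharacterised gene Gm20110 followed with 6.11 and 5.36, and one 36737 bp from Pum2, which encodes an RNA-binding repressor of translation, with 5.90 and 5.28. A region within or at the edge of Hivep3, which encodes a zinc finger protein that binds kappa B motifs, had 5.69 and 5.28. Of the 20 strongest regions, 11 lay within or at the edge of a protein-coding gene, among them Trrap (5.07 and 5.28), a cofactor of histone acetyltransferases, Pik3cb (4.97 and 5.44), a catalytic subunit of PI3 kinase, and Pfkp (5.90 and 4.97), a phosphofructokinase of glycolysis. Of the 20, 0 lay in a gene of the lists described below.

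The authors compared the genotypes directly in their deposited tables, and 760 of the 6562 WT-only regions held an entry of the WT-higher one. In the authors' deposited table that is 11.6%, against 6.71% of all autosomal union regions and 9.20% of regions shared by 4 libraries. No WT-only region held a KO-higher region, but only 21 of all 341091 autosomal union regions did. This contrast is the one that chose the WT-only regions, so nothing is read from the difference. Of the WT-only regions, 5802 were in neither deposited table. The 773 entries of the authors' deposited table that overlapped WT-only regions had a median score of 5.31, against 4.77 over its 24503 autosomal entries. The sources used here give no scale for that score.

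Weaker WT-only regions held a WT-higher region more often. Split into 4 ranges of the weaker-WT fold, the lowest (1.54 to 3.07) had 18.4% of its WT-only regions marked in the authors' deposited table. The following ranges had 12%, 7.54% and 7.54% marked in the authors' deposited table. Among regions with both WT peaks and at least 1 KO peak in the same ranges of fold, the shares marked in the authors' deposited table were 6.53%, 5.17%, 3.73% and 4.20%. The WT-only regions that held a WT-higher region were wider (median 437.5 bp against 360 bp) and lay inside genes more often (57.9% against 44.1%).

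**Figure D2:**
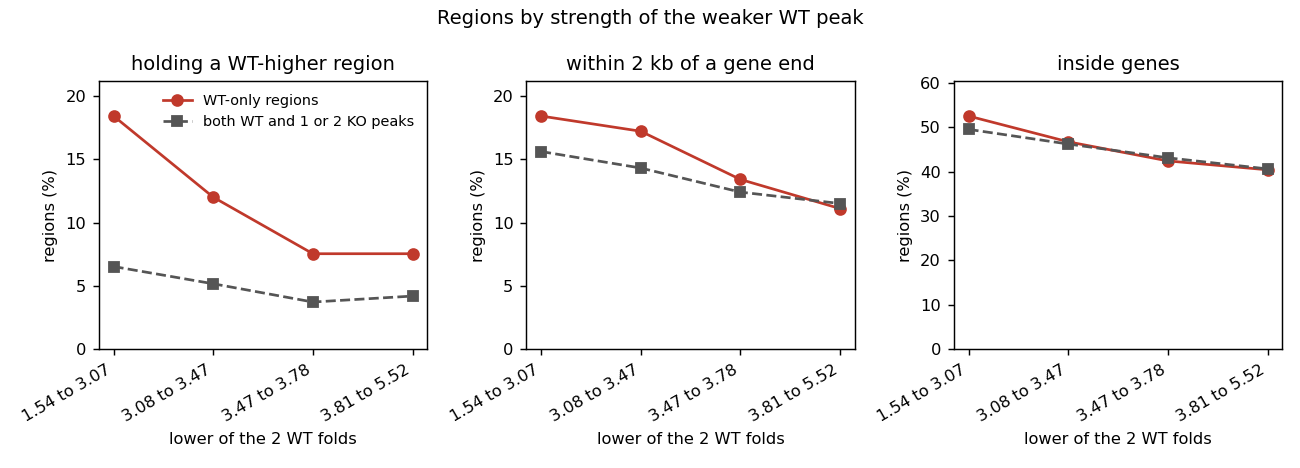
Share of regions (y axis, %) that hold a WT-higher region, lie within 2 kb of a gene end or lie inside genes, by range of the lower WT fold (x axis, 4 ranges holding 1551 to 1773 WT-only regions each). Red circles are WT-only regions and grey squares are regions with both WT peaks and 1 or 2 KO peaks. All 3 shares are highest in the weakest range, 18.4%, 18.4% and 52.5% of WT-only regions, and the WT-only share at gene ends is above that of the other class in the 3 weaker ranges.

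The WT-only regions with the highest scores in the authors' deposited table were led by Ctse, which encodes the aspartic protease cathepsin E. Its region (1, 131641445 to 131642026) had a score of 17.0 in the authors' deposited table, with 4.37-fold enrichment and 48 reads in WT replicate 2 and 6.46-fold and 81 reads in WT replicate 3. In the authors' deposited table a region 5701 bp from Tmem30c (16, 57259957 to 57260437) had a score of 15.3, with WT folds of 4.25 and 3.94. One 49091 bp from Trub1, which encodes a pseudouridine synthase, scored 15.3 in the authors' deposited table, with folds of 7.14 and 5.04. It was also among the 20 strongest regions. The Gm33473 start within Ubac2, whose sequence is given above, scored 12.8 in the authors' deposited table. A region 75224 bp from Rasgrp1, which encodes an activator of Ras in lymphocytes, scored 12.7 in the authors' deposited table. It had folds of 4.14 and 2.54. Rasgrp1 was only its nearest protein-coding gene, and the region was centred at -623 bp from the start of another gene.

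By position, the WT-only regions lay nearer to genes than shared or KO-only regions. Midpoints within 2 kb of either end of a RefSeq gene of any class made up 15.1% of WT-only regions, 11.3% of KO-only and 11.6% of shared regions. Midpoints further inside a gene made up 45.7%, 40.8% and 40.8% in the same order, and 39.2%, 48.0% and 47.6% lay outside genes. The 95% Wilson intervals of the WT-only shares were 14.3 to 16% and 44.5 to 46.9%, which cover counting error only. With protein-coding genes alone, 8.02% lay at gene ends and 41.5% inside, against 5.21% and 35.5% of shared regions. The table of genes gives 1 span per gene, so exons, introns and UTRs were not told apart.

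This position moved with 1 library and with peak strength. Regions with a peak in WT replicate 2 alone lay at gene ends in 16.8% and inside genes in 48.9%. Those of WT replicate 3 alone lay there in 12.4% and 42.2%, those of KO replicate 2 alone in 12.4% and 43.2%, and those of KO replicate 3 alone in 10.9% and 41.0%. Regions held by WT replicate 2 and KO replicate 2 but not by the others had 15.4% and 47.2%, shares as high as those of the WT-only regions. With equal numbers of peaks the shares of WT-only regions were 13.7% and 43.0%, and without WT replicate 2 they were 13.1% and 43.1%. In the range of lowest weaker-WT fold, 18.4% of WT-only regions lay at gene ends and 52.5% inside genes, against 15.6% and 49.5% of the regions with both WT peaks and a KO peak. In the next range the values were 17.2% and 46.7% against 14.3% and 46.2%, and in the one after it 13.4% and 42.4% against 12.4% and 43.1%. In the range of highest fold they were 11.1% and 40.4% against 11.5% and 40.6%. Over gene ends the WT-only regions were thus higher in the 3 weaker ranges. The part of WT replicate 2 and of peak strength in the position was not tested.

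**Figure D3:**
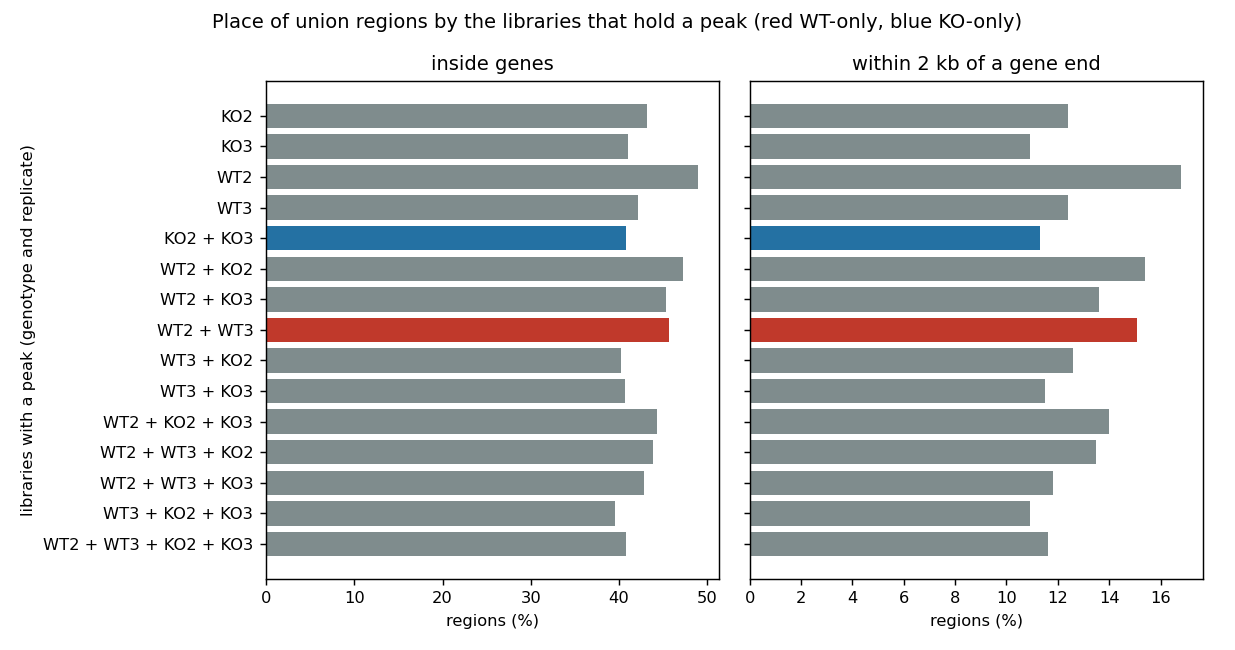
Share of union regions (x axis, %) whose midpoint lies inside a gene (left) or within 2 kb of a gene end (right), for each combination of libraries that hold a peak (rows, genotype and replicate number). The WT-only class in red has 45.7% and 15.1%, the KO-only class in blue 40.8% and 11.3%, and WT replicate 2 alone has the longest bars, 48.9% and 16.8%.

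By distance to start sites, too, WT-only regions lay nearest. The midpoint of a WT-only region lay a median of 29323 bp from the nearest start in the table, against 36064 bp for shared and 45626 bp for KO-only regions (6361 WT-only regions could be placed). For regions of WT replicate 2 alone the median was 23981 bp, and for those of WT replicate 3 alone 36231.5 bp. Within 2 kb of a start lay 6.78% of WT-only, 4.78% of shared and 4.13% of KO-only regions. The WT-only regions in that window were split evenly, with 213 upstream and 218 downstream of the start, as were all union regions, with 8499 and 8219. Within protein-coding genes of at least 20 kb, WT-only regions were spread along the gene. Of them, 22.3% lay in the fifth of the gene next to the start and 18.6% in the fifth next to the end. Over all union regions these shares were 22.4% and 17.3%, so the spread was close to the background. Their host genes had a median length of 122.0 kb, against 151.5 kb for shared and 161.7 kb for KO-only regions.

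The nearest region shared by 4 libraries was a median of 3216 bp from a WT-only region and 3768 bp from a KO-only region. It lay within 1 kb of 20.7% of WT-only and 17.5% of KO-only regions. Another WT-only region lay within 5 kb of 346 WT-only regions (5.27%), against 84 KO-only regions (1.91%) with another of their kind so near. The classes differ in size, with 6562 and 4402 regions, and these shares were not adjusted for it. No chromosome held most of the WT-only regions, and the WT-only share of union regions ran from 1.66% to 2.08% across the 19 autosomes.

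Counted by gene, 2646 of the 17548 protein-coding gene windows (span plus 2 kb on both sides) with a union region held at least 1 WT-only region, which is 15.1%. Of these, 2127 held 1, 362 held 2 and 157 held 3 or more, while 69 windows held 3 or more KO-only regions. At least 1 KO-only region lay in 1519 of the 17548 windows, so most windows held 0. WT-only regions were 2.25% of the 145295 union regions in windows, and KO-only regions 1.25%. The genes with most WT-only regions mix B cell genes with long genes of other tissues. Longer genes hold more union regions, so each count is given beside them.

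Foxp1, which encodes a forkhead transcription factor needed for B cell development, held the most, with 10 WT-only and 0 KO-only regions among 180. Its WT-only regions made up 5.56% of its union regions, lay from 115.3 to 520.8 kb from the gene start, and had folds of 2.65 to 4.04 in WT replicate 2 and 2.25 to 4.57 in WT replicate 3. The authors' deposited table had a WT-higher region in 3 of the 10. With equal numbers of peaks Foxp1 had 7 WT-only regions and 1 KO-only region. With peaks of at least 5-fold it had 1 of each. None of the 10 reached 5-fold in either WT library, so that setting counts other regions. Without WT replicate 3, when WT replicate 2 alone decides, Foxp1 had 41 WT-only regions and 1 KO-only region. Ebf1, which encodes a factor that specifies the B lineage, had 7 WT-only and 1 KO-only among 105, and 4 and 1 with equal numbers of peaks. The Ebf1 region with the highest fold in WT replicate 2 (11, 44948092 to 44948591) had 5.07-fold enrichment there and 3.15-fold in WT replicate 3.

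Ubac2, which encodes a ubiquitin-associated protein of the endoplasmic reticulum, had 8 WT-only regions and 1 KO-only among 76, in a gene of 142.5 kb. The authors' deposited table had a WT-higher region in 5 of the 8, with scores of up to 12.8. With equal numbers of peaks Ubac2 had 2 WT-only and 2 KO-only regions, so its excess of WT-only regions ended there. Rftn1, which encodes the lipid raft protein raftlin of B cell receptor signalling, had 6 WT-only and 0 KO-only regions among 76, and 4 in the authors' deposited table. The Rftn1 region at 50121432 to 50122049 on chromosome 17 had folds of 3.73 and 2.44 and a score of 10.9 in the authors' deposited table. Whrn, which encodes the hair cell scaffold whirlin, had the highest share of the 15 leading genes, with 5 WT-only regions among 18 (27.8%). It had 3 with equal numbers of peaks and 0 with peaks of at least 5-fold, a cut above all folds of its 5 WT-only regions. Its widest region spanned 1307 bp (4, 63482860 to 63484166), with folds of 3.52 and 3.39.

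**Figure D4:**
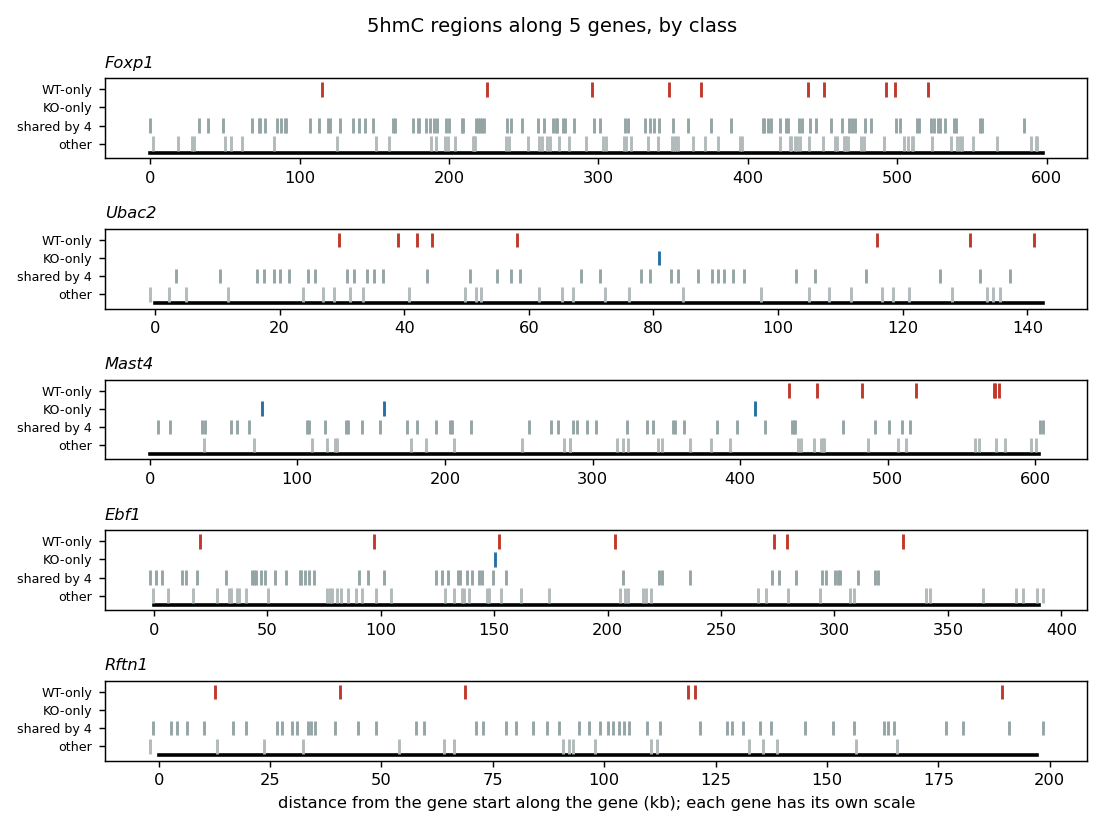
Midpoints of union regions (ticks) along 5 genes, as distance from the gene start in kb (x axis, own scale for each gene), in rows for WT-only, KO-only, shared by 4 libraries and other regions; the black bar is the gene. The 10 WT-only regions of Foxp1 and 6 of Rftn1 lie among shared regions with 0 KO-only regions, and the 7 WT-only regions of Mast4 lie in the distal part of the gene.

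Further genes with many WT-only regions were Mast4 (7 among 92, 3 KO-only), which encodes a serine/threonine kinase, and Baz2b (6 among 55, 1 KO-only), which encodes a bromodomain protein. The 7 regions of Mast4 lay 433.2 to 575.5 kb from its start. Sema4d, which encodes the lymphocyte semaphorin CD100, had 5 among 44, and St6gal1, whose enzyme adds the sialic acid that CD22 binds, had 5 among 55. Myo1e, which encodes a class I myosin, had 5 among 74, of which 4 held a region of the authors' deposited table. Msi2, which encodes an RNA-binding protein, had 5 among 68. In contrast Ptprd, a receptor phosphatase gene of neurons and the longest of the 15 at 2270.5 kb, had 6 WT-only and 5 KO-only among 257, and Agbl1 had 6 and 3 among 125. Each of Lhfpl3, with 6 among 78, Nedd4l, with 5 among 56, Whrn and Myo1e had 0 KO-only regions, as had most gene windows.

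Gene lists for this cell type were read by how many of their union regions were WT-only, beside the 2.25% of all windows. All of the lists were drawn up with earlier results of these data known. Of the 30 germinal center B cell genes, 14 held a WT-only region, and 40 of their 967 union regions (4.14%) were WT-only against 7 KO-only (0.724%). Besides Foxp1 and Ebf1 these were led by Bach2, a repressor that keeps B cells from becoming plasma cells, with 4 regions. Mef2c, Ets1 and Bcl11a, which encode transcription factors of B cells, had 3 each. A Mef2c region (13, 83609903 to 83610442) had folds of 4.76 and 2.84 and a score of 10.4 in the authors' deposited table. Bcl6, the master regulator of the germinal center, had 1 WT-only region among 14. With equal numbers of peaks the share of the list was 1.97% beside 1.69% in all windows, and without WT replicate 2 it was 9.56% beside 8.99%, so it lay near the background there. The share was 14.5% beside 6.35% without WT replicate 3, 11.6% beside 7.56% without KO replicate 2 and 5.89% beside 4.59% without KO replicate 3. With peaks of at least 5-fold it was 3.49% beside 4.42%, below the background. Of the 7531 WT-only regions of that setting, 14 overlapped those of the full lists. It thus describes mostly other regions, here and in the lists below.

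The lymphoma genes, a list that includes Rftn1, Mtss1, Hvcn1 and Itpkb and was drawn up with earlier results of these data known, had 24 WT-only regions among 498 (4.82%) in 11 of 26 genes. Rftn1 held 6 and Mtss1, which encodes a membrane-bending protein, held 4 with folds of 2.59 to 3.62 and 2.44 to 2.92. Hvcn1, which encodes the proton channel of B cells, had 2, and the stronger (5, 122208488 to 122208881) had 4.97 and 3.55. Itpkb, Stat3, Gna13 and Ciita had 2 each. With equal numbers of peaks the share of the lymphoma list was 2.57% beside 1.69% in all windows, and with peaks of at least 5-fold it was 5.34% beside 4.42%. Without WT replicate 2 it was 10.4% beside 8.99%, and without WT replicate 3 it was 14.2% beside 6.35%. Without KO replicate 2 it was 12.6% beside 7.56%, and without KO replicate 3 it was 6.8% beside 4.59%.

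The enzymes and readers of 5mC and 5hmC had the highest share, 9 WT-only and 0 KO-only among 132 (6.82%), in 5 of 17 genes. With equal numbers of peaks the list had 5.69%. Zbtb38, which encodes a zinc finger protein that binds methylated CpG, held 3 of the 9, among its 15 union regions. The rank of the list with every listed peak thus leaned on 1 gene. The folds of the Zbtb38 regions were 3.31, 2.79 and 3.62 in WT replicate 2 and 3.23, 2.29 and 3.94 in WT replicate 3. The authors' deposited table had a WT-higher region in all 3. Uhrf1, which brings the maintenance methyltransferase to newly copied DNA, had 1, centred at -551 bp from its start (17, 56302544 to 56303028), with folds of 4.41 and 3.78. Tet3, a dioxygenase of the same family as TET2, had 2, with folds of 3.31 and 4.02 in one and 3.83 and 3.39 in the other. Mbd2, a reader of 5mC, had 2 and Hells, a remodeler needed for methylation, had 1. No gene of this list held a KO-only region, but the list is small and KO-only regions were 1.25% of union regions in all windows. The T cell list and the erythroid and megakaryocyte list below also held 0 KO-only regions. Without KO replicate 3 the list of enzymes and readers had 13 WT-only and 3 KO-only regions.

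Antigen presentation genes had 11 WT-only regions among 174 (6.32%), in 8 of 19 genes. Ctse held 3, and H2-Aa, which encodes a chain of MHC class II, held 1 WT-only and 1 KO-only region. The H2-Aa region (17, 34283043 to 34283844) had folds of 4.04 and 2.91. Ciita, the activator of MHC class II genes that is also in the lymphoma list, held 2, and H2-DMb1, Tap2, Cd80, Cd86 and Ctss held 1 each. CD40 and NF-kB genes had 9 among 156 (5.77%), with 3 in Map3k14, the kinase NIK of the alternative NF-kB pathway, and 2 in Traf5. The folds in Map3k14 were low, 2.59 to 3.31 in WT replicate 2 and 2.52 to 3.31 in WT replicate 3. Under equal numbers of peaks this list had 2 WT-only and 3 KO-only regions, so its direction turned, while antigen presentation genes had 6 and 1.

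B cell receptor signalling genes lay at the background, with 15 WT-only regions among 697 (2.15%), of which Vav2, an exchange factor for Rac, held 3. Plasma cell genes had 5 among 207 (2.42%) and 4 KO-only regions, and cell cycle genes 4 among 160 (2.5%), 3 of them in Ccnd3, the D-type cyclin of germinal center B cells. Among markers of other cells, T cell genes had 6 among 147 (4.08%), in Skap1, Themis and Lat, a share close to that of the germinal center list. Taking equal numbers of peaks, the T cell list had 4.35%, above the 1.97% of the germinal center list, and with peaks of at least 5-fold it had 0 WT-only regions among 67. Myeloid markers had 1 among 83 (1.20%), in Mertk, and erythroid and megakaryocyte markers 0 among 22. The 15 neuronal genes, with 2636 union regions, had 36 WT-only and 36 KO-only regions (1.37% each). What part DNA of other cells has in any of these regions was not tested.

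**Figure D5:**
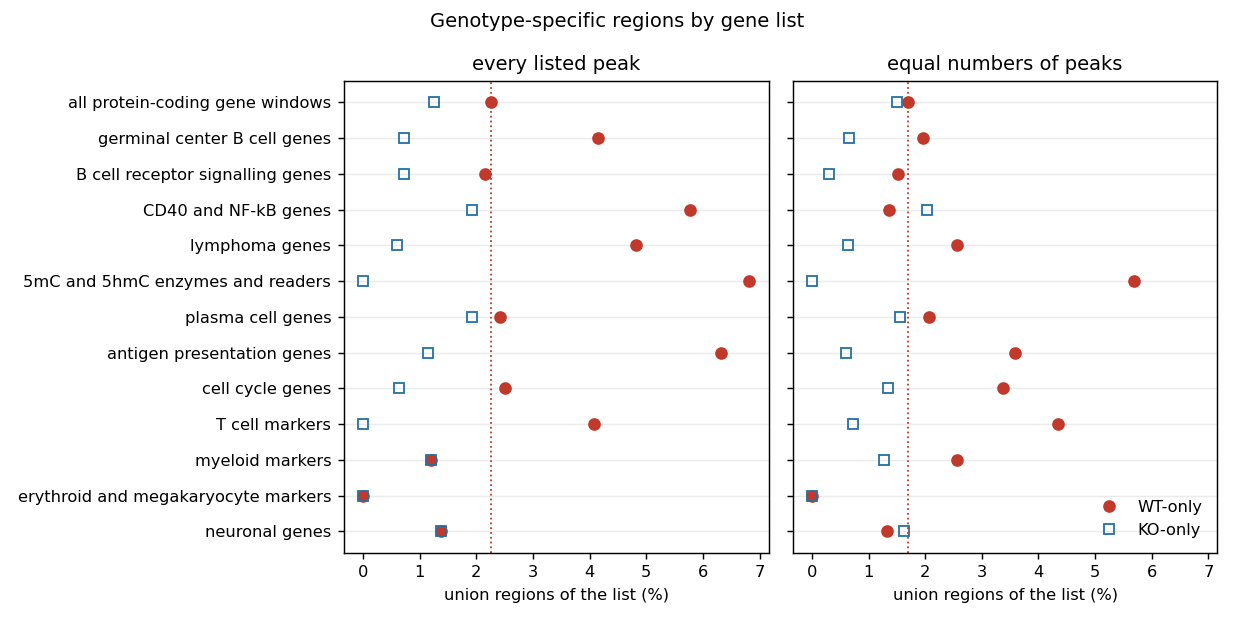
Share of the union regions of each gene list (rows) that were WT-only (red circles) or KO-only (blue squares), in % (x axis), with every listed peak (left) and with equal numbers of peaks from each library (right). Dotted lines mark the WT-only share of all protein-coding gene windows, 2.25% and 1.69%. Enzymes and readers of 5mC and 5hmC lie furthest right in both panels, at 6.82% and 5.69%, and CD40 and NF-kB genes move from 5.77% to 1.36%.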

How the data were processed

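Pulled-down libraries of genomic DNA from germinal center B cells, 2 WT and 2 KO, were used, and the 4 inputs were not analysed here. Build GRCm38.p3, MACS2 2.1.0.20151222 and BWA 0.7.12-r1039 were named per the submitters' processing notes, with no settings. The authors deposited 1 peak list per library, so peaks were called per library. For each peak the deposited list gives a fold enrichment (a ratio to local background), a −log10 p-value, a −log10 q-value and a score derived from the q-value. The authors also deposited tables of WT-higher and KO-higher regions with a score of unstated scale; the libraries compared in them are not given.

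Depth in reads was not given. A fold and a p-value together fix a whole pileup and a background under the Poisson test, and at least 99.9973% of peaks gave a whole pileup within 0.001 of the deposited −log10 p. Peaks were merged and classed in Python 3.11.15 with pandas 2.3.3 and numpy 2.4.6, with 1-based coordinates. Each region takes the strongest peak of a library. Genes (47042 on the autosomes) and start windows (31396) came from RefSeq tables of GRCm38.p6, a later patch of the same primary assembly. Distances are to the nearest start in the table, which holds none on chromosome 18. The code was tested on simulated peaks with known classes and pileups.

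No test was run: the groups were used to choose the regions, and regions are not replicates. Named are the 20 strongest regions, the 15 genes with most WT-only regions, the 10 highest deposited scores, the genes of 12 fixed lists, and the 5 strongest regions over a start. Not each of these is printed. The members and lists were chosen with earlier results of these data known. Alternatives were other merging, thresholds, overlaps and gene windows, equal numbers of peaks, and leaving out each library. Protein-coding genes alone, and the lists under other settings, were added after seeing the data.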

Additional observations from a re-analysis of the deposited data

How the results depend on the processing

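The number of WT-only regions was 6562, and leaving out 1 library gave 13499 to 27724; the number of KO-only regions was 4402, and leaving out 1 library gave 9258 to 22464. With peaks of at least 5-fold enrichment there were 7531 WT-only regions, of which 14 overlapped the WT-only regions of the full lists, and 711 KO-only regions, and the median weaker-WT fold was 5.29. Without a library, 1 class needs fewer libraries than the other, so its balance with the other says nothing of stability. The setting of equal numbers of peaks, which compares like classes, gave 5154 WT-only and 5029 KO-only regions. Merging peaks up to 100 bp apart (6469), a −log10 q of at least 5 (6528) and 50% coverage (6930) kept the count within 1.5 times.

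The share holding a region of the authors' deposited table was 8.67% at 5-fold, 9.06% with equal numbers of peaks, 12.8% with 50% coverage, 6.87% for deposited scores of at least 5 and 4.09% to 10.3% without 1 library. The share inside genes was 41.0% at 5-fold, 43.0% with equal numbers of peaks, 55.4% for any overlap, 41.5% for protein-coding genes and 43.1% to 47.7% without 1 library. The share at gene ends was 12.2% at 5-fold, 13.7% with equal numbers of peaks, 7.92% with 1 kb, 29.6% with 5 kb, 8.02% for protein-coding genes and 13.1% to 16.1% without 1 library. The cause of these moves was not tested. No paired analysis was possible because no test was fitted, and the numbers 2 and 3 were not used to pair libraries. The precision is limited by 2 libraries per genotype.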

Other observations

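Some WT-only regions lay close together, which is given as a description, since the spacing was chosen after the positions were seen. In 25 places, 4 or more WT-only regions followed each other with gaps of at most 25 kb. The number of such places for KO-only or for all union regions is not given here, and the places named below were picked from the 25. At the neighbouring receptor genes Il4ra and Il21r, which encode the receptor chains for interleukin 4 and interleukin 21 that T follicular helper cells supply to germinal center B cells, 5 WT-only regions lay within 59.4 kb, among 34 union regions with 0 KO-only. At Ubac2 and Gpr18 there were 5 within 28.8 kb, among 20 union regions. At Ttpal and Serinc3 there were 5 within 39.45 kb, among 13 union regions, and at Grhpr 5 within 49.08 kb, among 28. A stretch of chromosome 4 from 59230166 to 59291991, with no gene listed for it, had 5 within 61.83 kb, among 23. At the MHC class II genes H2-Ab1 and H2-Aa, 4 WT-only regions and 1 KO-only region lay within 44.05 kb.

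At Mta3, which encodes a subunit of the NuRD complex that works with Bcl6, 4 of the 6 union regions within 17.78 kb were WT-only. Near Gadd45g, a stress gene linked to DNA demethylation, there were 4 among 13 within 50.95 kb. The densest stretch had 4 WT-only regions in 10.89 kb, among 8 union regions, at Csf2ra. The microRNA genes Mir6899, Mir1981 and Mir7067 were each overlapped by a WT-only region. The folds in WT replicates 2 and 3 were 4.66 and 3.47, 4.25 and 3.78, and 4.76 and 2.92. The number of microRNA genes overlapped by other union regions is not given here, so nothing is read from these overlaps.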
